A study of Pyrus syriaca and Pyrus pyrifolia and Pyrus communis with 12 samples.

Results

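The miR169 family was followed through stigma exudates and stigmas of pear (Pyrus). It was taken as 3 rows of a table of 355 mature microRNA (miR) sequences, chosen by name: mdm-miR169a and mdm-miR169c, known from apple (Malus domestica), and fve-miR169a, known from woodland strawberry (Fragaria vesca). Arabidopsis loci predicted as targets of mdm-miR169c, and the Gene Ontology (GO) terms that hold them, were followed with the family. Small RNA was sequenced from 12 libraries, which were 1 exudate and 1 stigma library of each of 6 genotypes, all sampled unpollinated at 12 hours after anthesis from branches kept in a growth room overnight. The wild Pyrus syriaca came from Golan (900 m), Manara (450 m) and SASA (830 m), and the cultivated pears, all from 430 m, were Pyrus communis Spadona and Pyrus pyrifolia Hosui and Shinsui. Exudate is the fluid of the wet stigma surface, rinsed off with water. For each exudate sample 500 to 600 flowers were pooled, and the methods give no such number for stigma samples. An exudate library thus averages many flowers of 1 genotype, which here means 1 cultivar or 1 wild population. These genotypes are the replicates. Species, wild growth, altitude, place and, for stigmas, sequencing depth cannot be told apart in the comparison of wild with cultivated pears. A table of miRs holds no marker that would check either tissue.

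In plants, a miR is a short RNA that guides an Argonaute protein to a messenger RNA with a nearly complementary site, which is then cut or translated less. miR169 is a family found across flowering plants, and the targets it is known for, in Arabidopsis and other species, are messenger RNAs of the A subunit of Nuclear Factor Y (NF-YA). NF-YA joins the NF-YB and NF-YC subunits in a transcription factor that binds the CCAAT box of promoters. In Arabidopsis the module is known from the response to drought and nitrogen supply, and from root, flower and embryo development.

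The mature sequences are shown first because they decide both which target sites the family can pair with and which rows can share reads. Capitals mark the seed, bases 2 to 8 from the 5′ end, which pair first with a target.
mdm-miR169a: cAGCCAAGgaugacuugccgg
mdm-miR169c: uAGCCAAGgaugacuugcccg
fve-miR169a: uAGCCAAGgaugacuugccu
mdm-miR169k: uAGCCAAGgaugacuugccug
ppe-miR169f: uAGCCAAGgaugacuugccugc
fve-miR169e: uGAGCCAAggaugacuugccu
ppe-miR169d: uGAGCCAAggaugacuugcca
mdm-miR169e: uGAAGAGAagagcguuguuugg

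These are the 3 members and the 5 further rows with a miR169 name that had a read (ppe marks peach, Prunus persica). Counted from the 5′ end of mdm-miR169a, and with its base first, mdm-miR169c differs from it by C1U and G20C, and fve-miR169a, 1 base shorter, by C1U and G20U. The 3 members therefore share 1 seed, AGCCAAG, as do 7 of the 12 rows with a miR169 name. In fve-miR169e and ppe-miR169d the same run of bases begins 1 base later, which gives the seed GAGCCAA. The row mdm-miR169e does not look like the others: its closest ungapped alignment with mdm-miR169a had 12 differences over 20 bases. fve-miR169a is contained in mdm-miR169k, and mdm-miR169k in ppe-miR169f, so that these rows may count the same molecules. The annotation in the table puts the precursor mdm-MIR169a on the minus strand of apple contig MDC044115.7, bases 12507 to 12664, mdm-MIR169c on the minus strand of contig MDC001494.456, bases 32568 to 32767, and fve-MIR169a on the minus strand of strawberry linkage group LG3, bases 8877628 to 8877767; the builds are not given in the sources used here. The sequence of mdm-miR169a stands under 69 miRBase names from 25 species prefixes, among them ath-miR169b-5p and ath-miR169c of Arabidopsis, and that of mdm-miR169c under 7 names from 2 prefixes.

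Depth limits each value below. The exudate libraries held 27 to 176 reads assigned to miRs (median 49.5) and the stigma libraries 199 to 1777 (median 653). A read was assigned to a miR with up to 7% mismatches, which is 1 base in 21, with an offset of up to 11 bases and at least 50% overlap, so that a miR169 read could fall in more than 1 row of the family. Of the 355 sequences, 120 had a read, 61 of them in exudates and 114 in stigmas. No 2 libraries held identical counts. An exudate was closest to the stigma of its own genotype, by the correlation of log2 shares over 35 miRs, in 2 of 6 genotypes.

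The family was in effect 1 sequence in these libraries. Rows with a miR169 name held 2 reads in exudates and 339 in stigmas, and mdm-miR169a held both exudate reads and 96.2% of the stigma reads. The other 7 rows with reads held 13 stigma reads between them, with no count above 2 in any library, and 4 rows (fve-miR169f, mdm-miR169b, mdm-miR169o and ppe-miR169k) had no read in any library. mdm-miR169c had 2 reads, both in the Manara stigma. fve-miR169a had 1 read in the Golan and 1 in the Manara stigma. mdm-miR169k and ppe-miR169f each had 1 read in the Golan, Manara and Spadona stigmas, with equal counts in 12 of 12 libraries, and 1 read each was found of fve-miR169e and ppe-miR169d in the Manara stigma and of mdm-miR169e in the SASA stigma. By the study's rule, which calls a miR present in a library from 2 reads, mdm-miR169a was present in 0 of 6 exudates and 6 of 6 stigmas, mdm-miR169c in 1 stigma, and fve-miR169a in none of the 12 libraries.

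mdm-miR169a was scarce in exudates and among the leading miRs of every stigma. Its exudate counts were 1 read in Golan, 0 in Manara, 0 in SASA, 1 in Spadona, 0 in Hosui and 0 in Shinsui. The stigma counts were 87 reads in Golan, 120 in Manara, 45 in SASA, 53 in Spadona, 13 in Hosui and 8 in Shinsui. Counts follow depth, so the share of all reads assigned to miRs in the library was used for comparison, with its 95% Wilson interval, which like the limits of zero below covers counting error only. In exudates the read in Golan was 2.00% (0.354% to 10.5%) and the read in Spadona 2.04% (0.361% to 10.7%). In the exudates without a read, a count of 0 (3 reads taken as its limit) allows up to 1.70% in Manara, 11.1% in SASA, 7.32% in Hosui and 3.80% in Shinsui. The Manara exudate, the deepest, therefore gives by far the tightest limit.

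The stigma share was 5.25% in Golan (4.28% to 6.43%), 6.75% in Manara (5.68% to 8.02%), 5.67% in SASA (4.26% to 7.50%), 10.4% in Spadona (8.00% to 13.3%), 3.86% in Hosui (2.27% to 6.49%) and 4.02% in Shinsui (2.05% to 7.73%). Spadona was the highest and the P. pyrifolia cultivars the lowest, but the interval of each P. pyrifolia cultivar overlaps those of all 3 wild pears, and that of Manara just reaches that of Spadona. By its mean share mdm-miR169a ranked 3 of 23 miRs with at least 20 stigma reads, behind mdm-miR482d and mdm-miR164b, and within libraries it ranked between 2 and 6. Its highest stigma share was 2.68 times its lowest. The same ratio was 9.85 for mdm-miR482d, 54.0 for mdm-miR164b and 2.72 for fve-miR168-3p, so that mdm-miR169a was among the steadiest of the abundant stigma miRs.

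**Figure D1:**
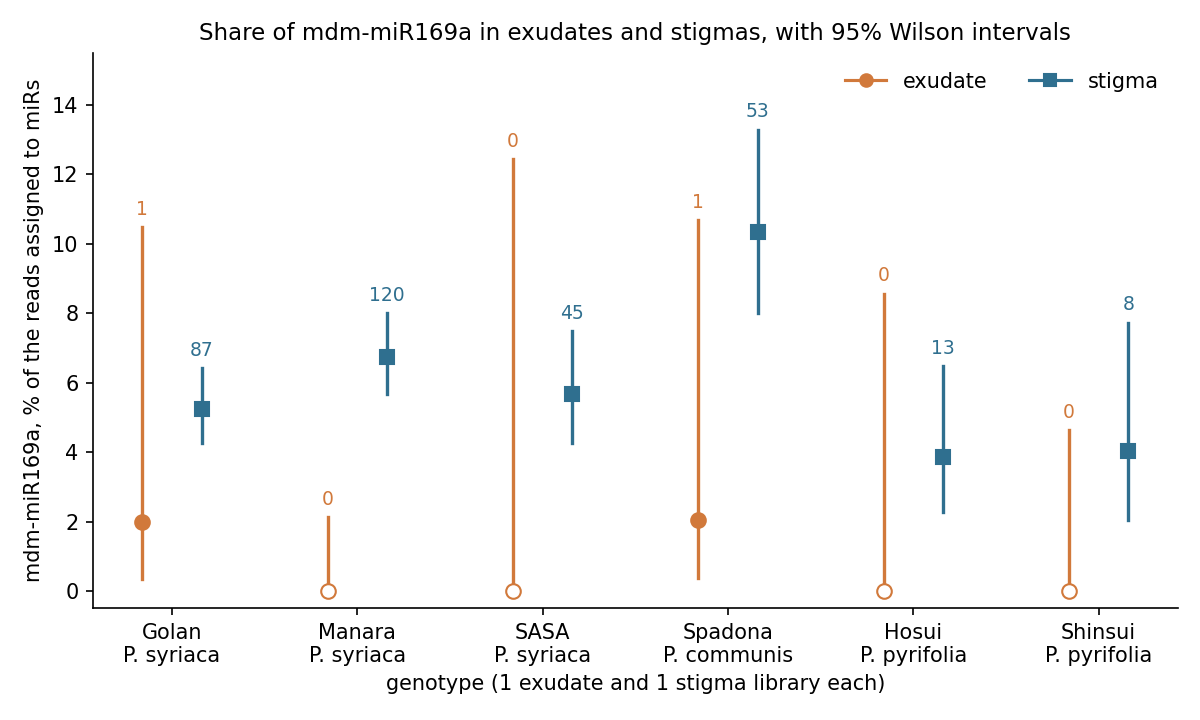
Share of mdm-miR169a in percent of the reads assigned to miRs (vertical axis) in the exudate (circles, left) and the stigma (squares, right) of each genotype. Bars are 95% Wilson intervals, open circles mark libraries without a read, and the number above each bar is the count of mdm-miR169a reads. Stigma shares run from 3.86% to 10.4%, and every exudate share is below the stigma share of its genotype, with intervals that are separate only in Manara.

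The first comparison asked whether the exudate carries the miRs of the stigma it comes from in the same proportions. The share of mdm-miR169a averaged 0.673% ± 1.04 in exudates and 5.98% ± 2.40 in stigmas (SD, n = 6 each), a mean paired difference, exudate minus stigma, of -5.31 ± 1.96 percentage points. The exudate share was lower in 6 of 6 genotypes, but in the 4 exudates without a read any stigma read fixes that sign. With exact sign flips over genotypes the two-sided p was 0.03125, the smallest that 6 pairs allow; after Benjamini-Hochberg adjustment over the 35 miRs with at least 10 reads it was 0.273, and 0 of the 35 passed 0.05. As background, 3 of those 35 miRs, 8.57%, were lower in the exudate in all 6 genotypes, a count open to the same limit. Genotype by genotype the depth was thin: the Wilson intervals of both tissues were separate in 1 genotype, Manara, and overlapped in the other 5, and in Golan, SASA and Hosui the stigma share lay below the share that a count of 0 allows in the exudate. A share gives no absolute amount of the miR, and what lowers it in the exudate was not tested.

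The scarcity can also be put in reads. The 2 reads found over the 6 exudates stand against 25.9 had each exudate held mdm-miR169a at the share of its own stigma. Those 25.9 reads are 2.63 in Golan, 11.9 in Manara, 1.53 in SASA, 5.07 in Spadona, 1.58 in Hosui and 3.18 in Shinsui. The Manara library thus supplies the largest part of that number, and without it the 2 reads stand against 13.99. The ratio of reads found to reads at the stigma share was 0.0773, with an exact Poisson interval of 0.00936 to 0.279 for the exudate count alone. It was the lowest of the 11 miRs with at least 5 reads at the stigma share. That limit uses the stigma share alone, so miRs scarce in stigmas are left out of the ranking. mdm-miR159d followed at 0.132, on 1 read. mdm-miR164b stood at 0.337, mdm-miR482d at 1.74 and mdm-miR2118a at 2.18. The interval of mdm-miR169a overlaps those of 7 of the 10 others, mdm-miR164b among them (0.241 to 0.459), so its place against those 7 is within counting error; it is separate from those of fve-miR168-3p, mdm-miR482d and mdm-miR2118a. Because mdm-miR482d takes 203 of the 422 exudate reads, the number was recomputed with mdm-miR482d left out of every total, which gave 19.4 reads, and with both mdm-miR482d and mdm-miR164b left out, which gave 27.0 reads; the 2 reads found are the same in each.

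**Figure D2:**
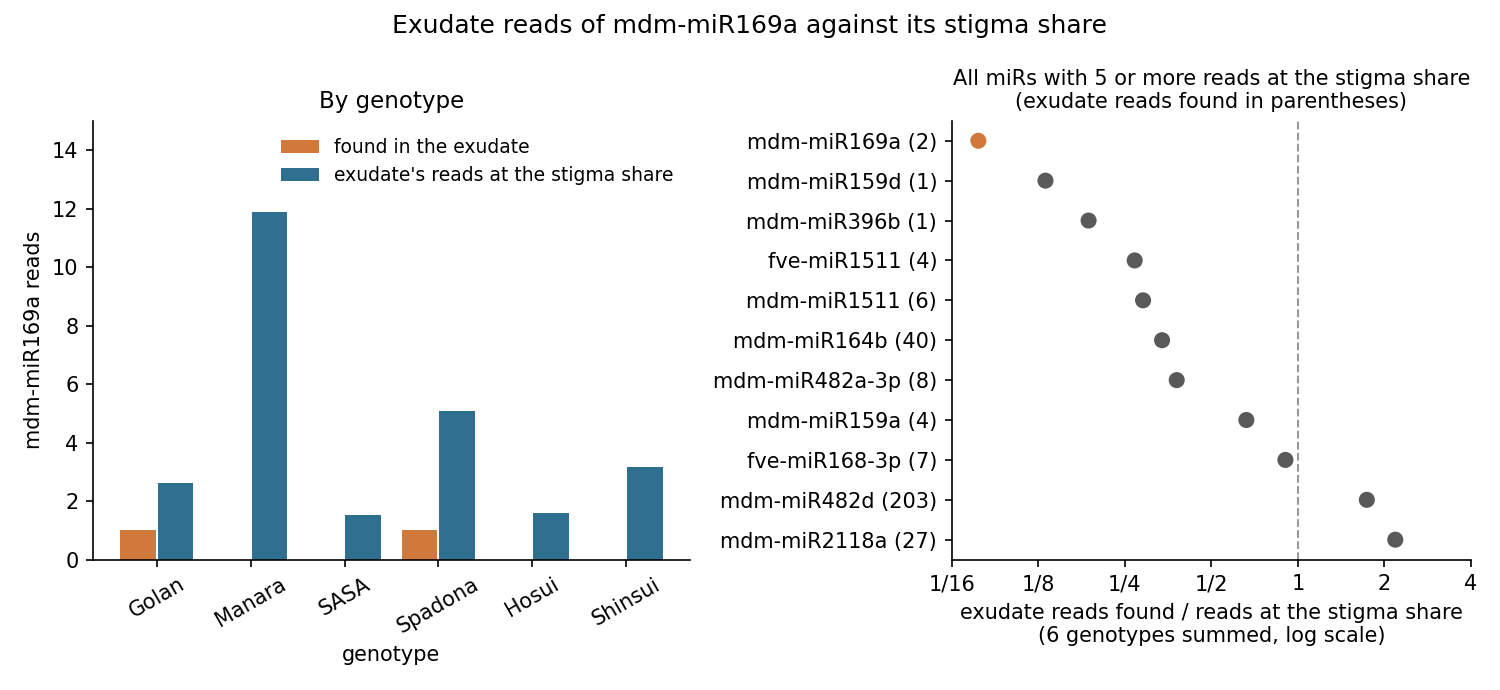
Left, mdm-miR169a reads found in each exudate (left bar of each pair) and the reads that the exudate's total gives at the share in the stigma of that genotype (right bar). Right, the ratio of both quantities summed over 6 genotypes, on a log2 axis, for the 11 miRs with at least 5 reads at the stigma share, with the exudate reads found in parentheses. mdm-miR169a lies at 0.0773 and mdm-miR2118a at 2.18; the dashed line marks equal shares.

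The count test reached mdm-miR169a only when its filter was lifted. In the edgeR quasi-likelihood test with TMM scaling, the usual filter on low counts left 3 miRs between exudates and stigmas, mdm-miR169a not among them, and 0 were called at an adjusted p under 0.05 (0% of those tested, with 1 miR at an unadjusted p under 0.05). With genotype as a block 1 of these 3 was called, mdm-miR164b. With no filter and no block, 120 miRs were tested and 6, 5%, were called, all lower in exudates. Among them was mdm-miR169a, with a log2 fold change, exudate over stigma, of -5.09 (SE 0.94, edgeR adjusted p 8.47e-06). Adding the genotype block to this unfiltered fit gave mdm-miR169a -4.99 (SE 0.97, edgeR adjusted p 1.96e-05). DESeq2 called 10 of 120, 8.33%, again all lower, and gave mdm-miR169a -5.93 (SE 1.06, DESeq2 adjusted p 9.92e-07). Among its calls, fve-miR168-3p and mdm-miR159a each had the larger plain share in the exudate in 4 of 6 genotypes. Their direction thus differs with the scaling, and the size factors of DESeq2 were not examined. TMM factors without a filter were 0.943 to 3.53 in exudates and 0.381 to 0.827 in stigmas. This shift of 1.66 on the log2 scale between the tissues enters every fold change of the unfiltered edgeR fits with TMM.

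With plain library totals in place of TMM, a setting chosen after seeing the data, 4 of 120 miRs, 3.33%, were called by edgeR. Of these mdm-miR169a alone was lower in exudates (0.833% of those tested), with a log2 fold change of -3.50 (SE 0.95, adjusted p 0.00696), and 3 miRs were higher, fve-miR156a, mdm-miR156a and mdm-miR390a, named here after their values were seen. With genotype as a block in the same setting it was -3.54 (SE 0.88, adjusted p 0.00714), where 5 of 120 miRs, 4.17%, were called and 2 of them, 1.67%, were lower. The call rested on Manara: leaving out 1 genotype at a time gave -4.29 to -2.79 with adjusted p 0.0109 to 0.0700, and the call was lost without Manara (-2.79, adjusted p 0.0700). Such fitted fold changes rest on 2 exudate reads and depend on the prior count of the fit.

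A ratio of 2 miRs within a library needs no total. mdm-miR169a was set against the 3 miRs that follow it in mean stigma share, as log2 of the ratio with 0.5 added to both counts. Against mdm-miR2118a, of a family known in other plants to target disease resistance genes of the NBS-LRR class, the log2 ratio averaged -2.74 ± 0.89 in exudates and 0.95 ± 1.30 in stigmas (SD, n = 6 each). The exudate counts of mdm-miR2118a were 5 in Golan, 5 in Manara, 3 in SASA, 4 in Spadona, 3 in Hosui and 7 in Shinsui, so that it exceeded mdm-miR169a in every exudate, while in stigmas mdm-miR169a was at or above it in 5 of 6. The difference, exudate minus stigma, was -3.69 ± 1.10, lower in 6 of 6 genotypes (exact sign flips, two-sided p = 0.03125, 0.09375 after adjustment over the 3 comparators). Because 4 of the 6 exudates had no read of mdm-miR169a, the size of this difference follows the number added: it was -3.003 with 1 and -5.27 with 0.1 in place of 0.5. The comparator also differed between the tissues. mdm-miR2118a averaged 8.05% of the miR reads in exudates and 3.37% in stigmas, and every genotype had the larger share in its exudate. The exact sign-flip p was 0.03125, or 0.273 after adjustment over 35 miRs. This ratio thus joins a raised share of mdm-miR2118a to a lowered share of mdm-miR169a.

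Against the other comparators the exudates held too few reads for a reading. mdm-miR1511 had 6 exudate reads and mdm-miR482a-3p 8, against 27 of mdm-miR2118a. The log2 ratio to mdm-miR1511 averaged -0.77 ± 1.41 in exudates and 0.52 ± 0.80 in stigmas, a difference of -1.30 ± 1.26 (exact sign flips p 0.0625, adjusted 0.09375), with no read of either miR in the Manara exudate and -2.01 to -1.03 for the other numbers added. The log2 ratio to mdm-miR482a-3p averaged -0.77 ± 1.23 in exudates and 0.40 ± 0.82 in stigmas, a difference of -1.17 ± 1.46 (exact p 0.09375, adjusted 0.09375). In SASA, Hosui and Shinsui that exudate ratio is 0 by the added 0.5 alone, since neither miR had a read, which leaves 3 genotypes with exudate reads. None of the 3 differences passed 0.05 after adjustment.

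**Figure D3:**
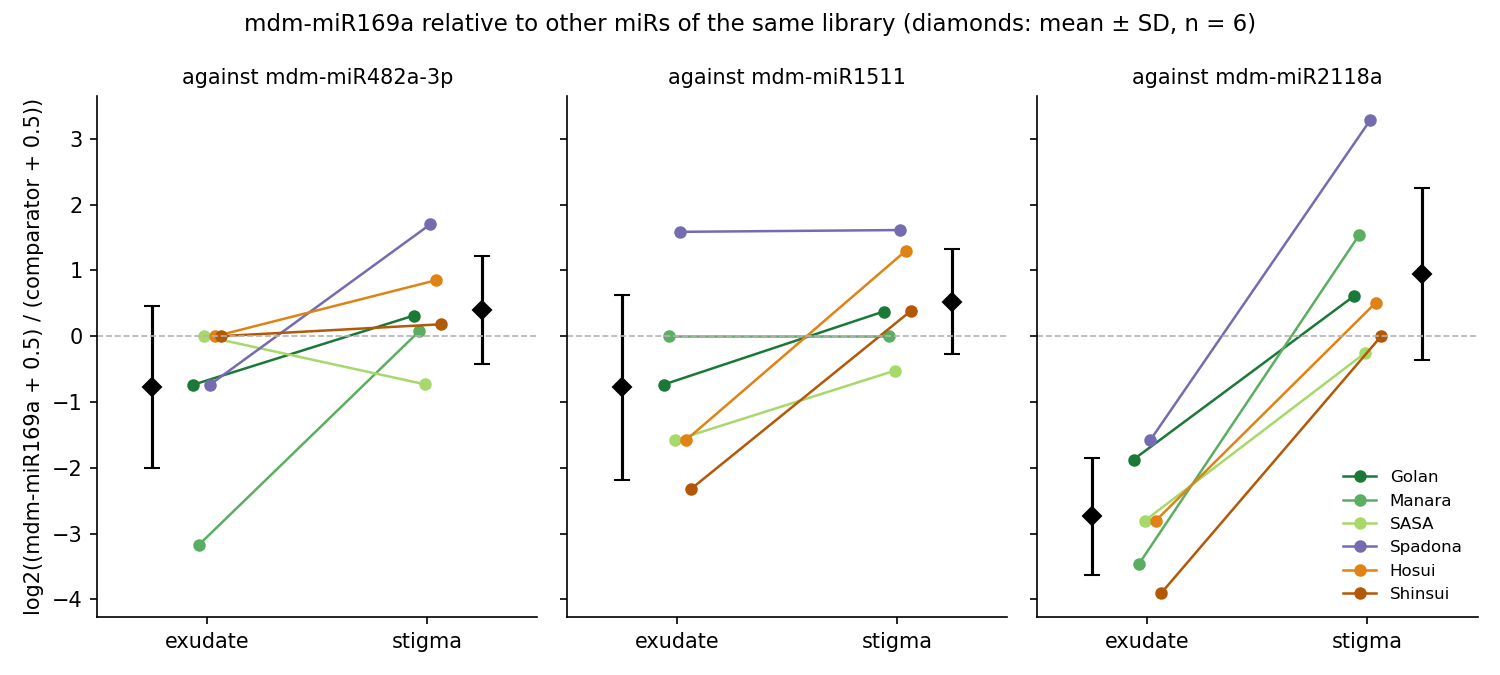
Log2 ratio of mdm-miR169a to each of 3 other miRs of the same library, with 0.5 added to both counts (vertical axis), in exudate (left) and stigma (right). Each line joins the libraries of 1 genotype, and diamonds with bars are the mean ± SD of 6. Against mdm-miR2118a all 6 lines run lower in the exudate, with means of -2.74 in exudates and 0.95 in stigmas.

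The second comparison set the wild P. syriaca stigmas against the cultivated ones. As a share of all miR reads, mdm-miR169a averaged 5.89% ± 0.776 in wild and 6.08% ± 3.70 in cultivated stigmas (SD, n = 3 each), a difference of -0.186 percentage points (exact permutation, two-sided p = 1; 3 against 3 cannot go below 0.1). The groups overlapped, because Spadona lay above and Hosui and Shinsui below all 3 wild stigmas. P. syriaca against P. pyrifolia alone gave 1.95 percentage points more in the wild (exact permutation p 0.1).

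The wild mean was below the cultivated mean under all 4 denominators tried, but the size of the gap and the overlap of the groups differed between them. mdm-miR482d, the miR with the highest mean stigma share, ranged from 6.58% to 64.8% of the reads of a stigma. Without it in the totals, the share of mdm-miR169a was 5.62% in Golan, 7.71% in Manara and 6.21% in SASA, against 14.5% in Spadona, 9.35% in Hosui and 11.4% in Shinsui. The mean was then 6.51% ± 1.08 in wild and 11.8% ± 2.58 in cultivated stigmas (SD, n = 3 each), a difference of -5.24 with no overlap (exact permutation p 0.1, the smallest possible). Under that denominator 2 of 29 miRs, 6.9%, were lower in wild stigmas without overlap. With mdm-miR164b left out as well, the means were 11.7% ± 2.40 in wild and 18.1% ± 9.21 in cultivated stigmas, a difference of -6.40 (exact permutation p 0.4), and the groups overlapped again. With TMM effective library sizes they were 9.75% ± 2.60 in wild and 11.4% ± 5.08 in cultivated stigmas, a difference of -1.61 (exact permutation p 0.8).

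**Figure D4:**
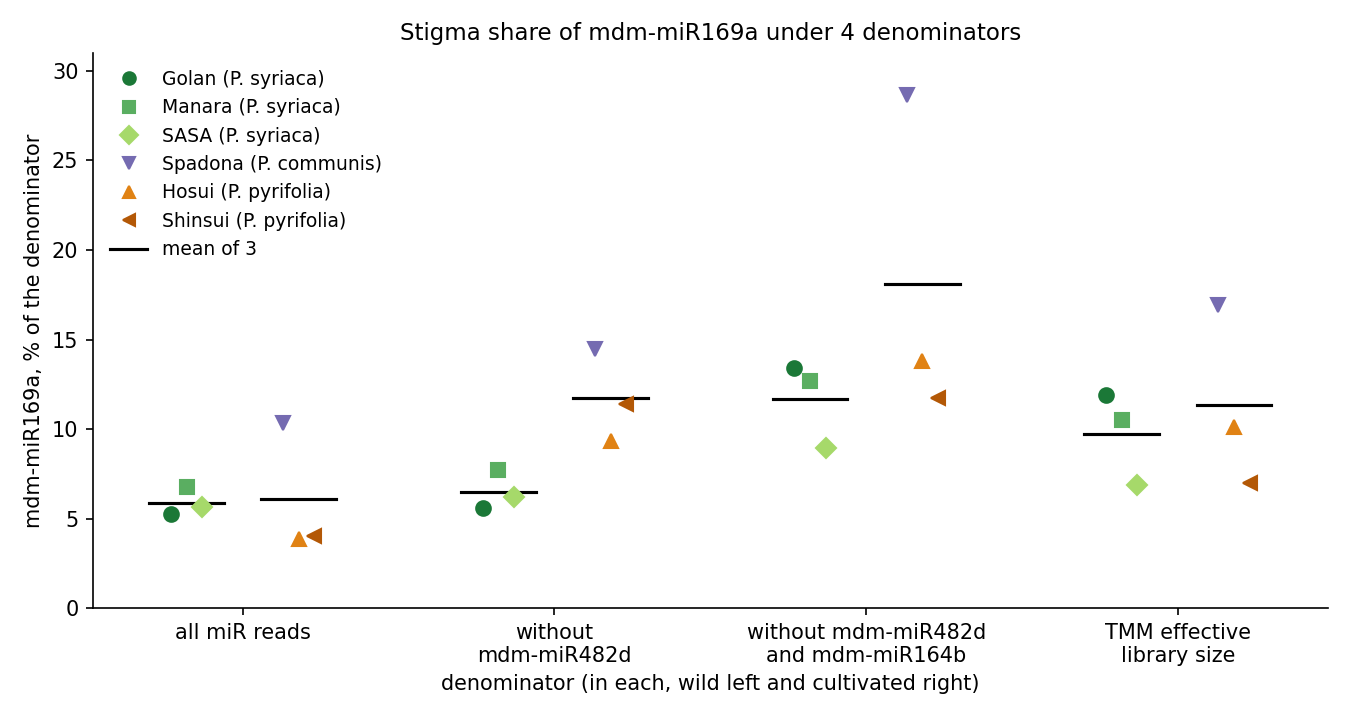
Stigma share of mdm-miR169a in percent (vertical axis) under 4 denominators, with wild P. syriaca on the left and cultivated pears on the right of each; points are libraries and lines the means of 3. The groups separate only when mdm-miR482d is left out of the totals, with 5.62% to 7.71% in wild and 9.35% to 14.5% in cultivated stigmas.

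In edgeR with the filter, mdm-miR169a was tested in both comparisons of stigmas and called in neither. Between P. syriaca and P. pyrifolia its log2 fold change was -0.20 (SE 0.37, edgeR adjusted p 0.704), where 1 of 13 miRs, 7.69%, was called. Between wild and cultivated stigmas it was -0.45 (SE 0.28, edgeR adjusted p 0.237), where 2 of 8 miRs, 25%, were called. The sign was not stable: with library totals and no scaling the first became 0.66 and the second 0.05. The second also moved with single libraries, to -1.24 without Hosui, -0.92 without Shinsui and -0.20 without Spadona. DESeq2 gave 1.98 between P. syriaca and P. pyrifolia (SE 0.67, DESeq2 adjusted p 0.0171) and called 7 of 110 miRs, 6.36%, all of them higher in P. syriaca. The P. syriaca stigmas were also the deeper ones, with 794 to 1777 miR reads against 337 in Hosui and 199 in Shinsui. Depth and species cannot be told apart here.

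The 3 miRs whose stigma counts stood in the steadiest proportion to mdm-miR169a were rows of miR396. The family is known in Arabidopsis for growth-regulating factor targets, which were not checked for these rows, of which fve-miR396a-3p is by its name of the 3p arm. The measure was the SD over the 6 stigmas of the log2 ratio, over 22 miRs with at least 20 stigma reads. It was 0.37 for fve-miR396a-3p, 0.51 for mdm-miR396b and 0.58 for ppe-miR396a, against 0.60 for mdm-miR396a, 0.70 for fve-miR1511, 0.80 for mdm-miR1511, 0.82 for mdm-miR482a-3p and mdm-miR396c, 1.64 for mdm-miR482d and 1.76 for mdm-miR164b. Whether miR396 rows share reads was not checked. fve-miR396a-3p had 5 reads in Golan, 8 in Manara, 4 in SASA, 4 in Spadona, 1 in Hosui and 0 in Shinsui, and mdm-miR396b had 14, 35, 10, 5, 2 and 1 in the same order. All of these ratios share the counts of mdm-miR169a, and the added 0.5 weighs most where counts are near 0.

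Among miR families known in Arabidopsis for transcription factor targets, miR169 came after miR164, whose targets are NAC genes, by stigma reads, and well down the list by exudate reads. The list held 16 families, of which 13 were in the table with 83 sequences, 50 of them with a read. miR164 had 41 reads in exudates and 1992 in stigmas, miR169 2 and 339, miR159 6 and 217, miR396 11 and 215, and miR156, whose targets are SPL genes, 15 and 18. In exudates miR172 (6), miR167 (5) and miR171 (3) were also above miR169. mdm-miR169a made up 2.22% of the 90 exudate reads of the list and 11.4% of its 2858 stigma reads. In the filtered edgeR tests with TMM scaling and no block, 0 sequences of the list were called: 1 was tested between exudates and stigmas, 5 between P. syriaca and P. pyrifolia, and 2 between wild and cultivated stigmas. In other filtered settings mdm-miR164b was called, between exudates and stigmas with the block and between P. syriaca and P. pyrifolia with library totals. Median log2 fold changes of the list in the filtered TMM tests without a block were -3.66, 0.09 and 0.24. Over all miRs tested they were -0.94, 0.09 and 0.41. The first is the value of 1 sequence, mdm-miR164b, beside 3 miRs that include it, so it does not describe the list.

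Predicted targets stand in the deposited tables for 1 of the 3 members only, mdm-miR169c, which had 2 reads. They came from psRNATarget, which scored the miRs against Arabidopsis transcripts up to an expectation of 2.5, so that each is a sequence match in Arabidopsis and not a measured cleavage in pear. mdm-miR169a, with 2 exudate and 326 stigma reads, has 0 rows in either target table. The study set aside miRs present in 1 tissue whose highest count in the other was 1 read. mdm-miR169a, with 1 read in the Golan and 1 in the Spadona exudate, meets that rule. Its 0 rows therefore do not show that it lacks predicted targets. The stigma targets are those of miRs that the paper calls stigma-specific, which by its definition have no read in the exudate. That choice largely sets their exudate counts. No exudate read was counted for 22 of the 23 miRs with predicted stigma targets, and the other, mdm-miR396b, had 1. mdm-miR169c had 8 loci, 4.91% of the 163 rows of the stigma table, which holds 120 loci and 23 miRs. None of the 8 was predicted for another miR of that table, and 0 of them stood among the 47 loci of the exudate targets. The 25 loci listed for pollen are pollen-transcribed targets of exudate miRs, so none of the 8 could stand there. Whether the 8 are transcribed in pollen was not tested.

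The 8 loci carried only 3 different target sites. Each is shown 5′ to 3′ as in the deposited alignment, with capitals for bases that do not form a Watson-Crick pair with mdm-miR169c.
Site 1: AgggGaagucauccuuggcua
Site 2: ACggGaagucauccuuggcua
Site 3: AAggGaagucauccuuggcuG

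Site 1 was given for AT1G72830 (transcript bases 1413 to 1433), AT1G54160 (1489 to 1509) and AT1G17590 (1492 to 1512), and paired with 19 of the 21 bases of mdm-miR169c, all but positions 17 and 21 from the 5′ end of the miR. Site 2, at AT5G12840 (1284 to 1304), paired with 18 bases, with position 20 unpaired as well. Site 3, at AT5G06510 (1199 to 1219), AT3G05690 (1232 to 1252), AT3G20910 (1505 to 1525) and AT5G42120 (1610 to 1630), paired with 17 bases and formed a G:U pair at position 1. Pairing recomputed from the sequences equalled the deposited alignment in 8 of 8 rows. Of the 8 loci, 7 are in a list of 10 Arabidopsis NF-YA loci written from general knowledge, since the files pair no names with loci; AT5G42120 is not, although its site is letter for letter that of 3 listed loci. None of the 10 NF-YB or 9 NF-YC loci of the same list stood in the stigma table, and no NF-Y locus stood in the exudate table. The column of loci has no heading, so a locus set beside the wrong alignment could not be seen within a group that shares 1 site.

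The same sites were laid against the other members. mdm-miR169a, the sequence that was measured in stigmas, would pair with 17 of 21 bases of site 1 (mismatches at positions 1, 17, 20 and 21), with 18 of site 2 (mismatches at 1, 17 and 21) and with 18 of site 3 (mismatches at 17, 20 and 21). It thus has 2 pairs fewer than mdm-miR169c at site 1, the same number at site 2 and 1 more at site 3, where its C at the 5′ end meets the G that mdm-miR169c meets with U. fve-miR169a would pair with 18 of its 20 bases at each site. In all 3 members every position from 2 to 8 and from 9 to 12 was paired at all 3 sites, and position 17 was unpaired at all of them.

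**Figure D5:**
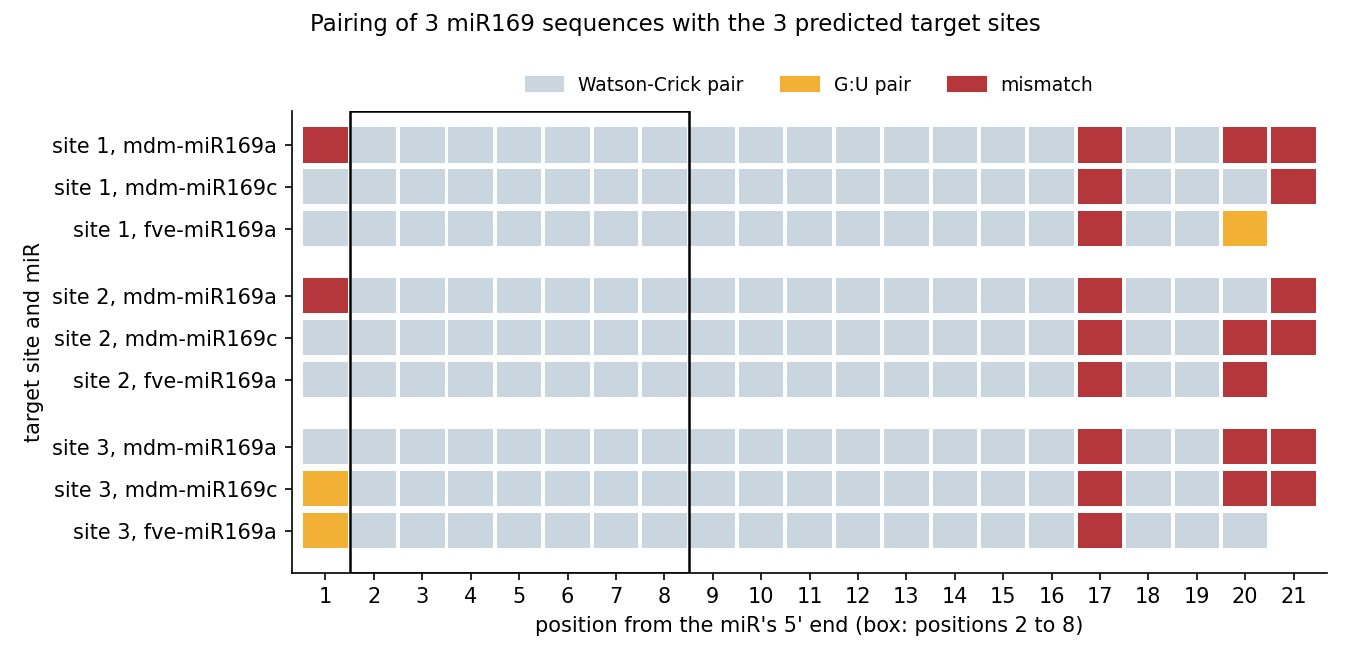
Pairing of the 3 members with the 3 predicted target sites by position from the 5′ end of the miR; grey is a Watson-Crick pair, yellow a G:U pair and red a mismatch, and the box marks positions 2 to 8. At these 3 sites the members differ only at positions 1, 20 and 21, and fve-miR169a ends at position 20.

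Most GO terms of the stigma targets held these loci, but most of these terms are broad. Of 49 terms, 43 held at least 1 of the 8 loci, 9 held all 8 and 24 held exactly 7, with AT5G42120 the absent one in each of the 24. The 9 terms with all 8, such as metabolic process, held 48.3% to 81.7% of all 120 stigma target loci, and the 24 terms with 7 held 10.8% to 76.7%. Transcription factor activity (sequence-specific DNA binding) held 7 of the 8, among 44 of the 120 stigma target loci (36.7%). AT1G54160, AT5G12840 and AT3G20910 were the 3 in embryo development, a term of 11 loci (9.17% of the stigma target loci), and with AT3G05690 the 4 in reproductive process, a term of 28. Flower development held 0 of them among its 16 loci. Each of the 3 embryo loci was in 43 of the 49 terms, AT3G05690 in 35, the remaining listed loci in 33 and AT5G42120 in 9. None of the 29 GO terms of the exudate targets held any of the 8, which follows from their absence among the exudate targets. A term counts Arabidopsis annotation of predicted loci, and the 8 loci enter it through the 2 reads of mdm-miR169c.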

How the data were processed

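Small RNA of 6 exudate and 6 stigma libraries was analysed from the deposited table of raw counts per unique mature miR. The authors trimmed reads with Cutadapt 1.1 (quality 32, 18 to 28 bases), filtered them with FASTX 0.0.14, assigned them with miRExpress 2.0 to strawberry, apple and peach miRs of miRBase 22 with up to 7% mismatches, and averaged miRs of identical sequence; no normalization was applied. Targets were predicted by the authors with psRNATarget against TAIR 10, and of the deposited target and GO tables only loci, alignments and other values such as start and end positions were used. The p-values and FDR of the GO tables are the authors' own tests and were left out. Libraries were grouped by tissue, species and cultivar or place. The sample titles give tissue, species, a replicate number and a code such as ExAA, but spell out no cultivar or place. Codes of the same genotype end alike in both tissues. Total counts were 27 to 176 in exudates and 199 to 1777 in stigmas.

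Members, lists, tests and alternatives were chosen with earlier results of these data known. The tests were exact sign flips across genotypes and exact permutation for shares, and for counts edgeR 4.0.16 (R 4.3.3, quasi-likelihood, TMM, filterByExpr, Benjamini-Hochberg at 0.05), with SE taken as the fold change over the root of F; the script was tested on simulated data. Exudate and stigma are paired by genotype from the labels; 2 of 6 exudates were closest to their own stigma. Alternatives were DESeq2 1.42.0, RLE, no scaling, no filter, the genotype block, other denominators, pseudocounts 1 and 0.1, presence from 1 or 5 reads, and leaving out each genotype. Named miRs were the members, other miR169 rows with a read, the 3 comparators and the 3 miRs most like mdm-miR169a; other miRs (mdm-miR482d, mdm-miR164b and those named for their place in a ranking, a list or a call) and the miR169 rows without a read fall outside that rule and were named after their values were seen. Named loci were those predicted for miR169. With 1 library per tissue and genotype, the exact tests measure the spread between genotypes. The edgeR and DESeq2 tests between tissues took the libraries as unpaired unless a block is named. Their p-values also rest on dispersions shared between miRs.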

Additional observations from a re-analysis of the deposited data

Results flagged for a closer look

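With mdm-miR482d and mdm-miR164b left out of the totals, the share of mdm-miR169a in the Spadona stigma was 28.6%, far above the other 5 stigmas, which ran from 8.95% to 13.8%. Spadona was marked because its gap to the next stigma was large against the range of all 6, a criterion that chance meets in about 1 in 20 such sets. Other sets of shares, differences and ratios were screened in the same way, so a mark somewhere among them is likelier than that. The Spadona value rests on 53 reads of 185.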

How the results depend on the processing

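Of 137 alternative values, 92 kept their direction, their side of the threshold and, for counts, came within 1.5 times the main value; the cause of the other changes was not tested. The lower exudate share kept its sign under all 18 alternatives run, but that sign was largely fixed in advance. In the 4 exudates without a read the difference is negative under any denominator. With all 6 genotypes lower, leaving 1 out cannot change the sign. The difference was -5.72 to -4.71 without 1 genotype, where 5 pairs cannot go below p 0.0625 by sign flips. Its size followed the denominator: -8.13 without mdm-miR482d, -9.95 with TMM sizes and -13.7 without mdm-miR482d and mdm-miR164b. Without the replicate block, an exact permutation of 6 against 6 gave the same -5.31 with p 0.00216. The share difference of wild and cultivated stigmas reversed to 1.95 for P. syriaca against P. pyrifolia alone, and ran from -1.30 to 1.95 without 1 genotype, above 0 without Golan (0.134) and without Spadona (1.95). Calls between exudates and stigmas (0 in the filtered test) were 6 with no filter, 10 with DESeq2, 1 with the replicate block, 7 with the replicate block and no filter, 5 with the replicate block, no filter and library totals, and 4 with no filter and library totals, which became 1 (without Manara) to 5 without 1 genotype (3 without Hosui); in that setting the fold change of mdm-miR169a was -2.79 without Manara. Calls between P. syriaca and P. pyrifolia (1) were 2 with library totals, 0 with no filter, 7 with DESeq2, 2 with no filter and library totals, and 0 to 1 without 1 genotype (0 without Hosui or Shinsui). There the log2 fold change of mdm-miR169a turned to 0.66 with library totals, 0.70 with no filter, 1.98 with DESeq2 and 0.58 with no filter and library totals, and ran from -0.44 to 0.24 without 1 genotype (0.24 without Hosui, 0.0065 without SASA). Calls between wild and cultivated stigmas (2) were 1 with RLE, 0 with library totals, 4 with no filter, 0 with DESeq2, 1 with no filter and library totals, and 0 to 1 without 1 genotype; mdm-miR169a turned to 0.052 with library totals, 0.38 with no filter and 0.88 with DESeq2, and ran from -1.24 to -0.20 without 1 genotype. At 1 read, mdm-miR169a was present in 2 exudates and fve-miR169a in 2 stigmas; at 5 reads, mdm-miR169c was present in 0.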

Other observations

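The 3 rows mdm-miR169k, ppe-miR169f and fve-miR169a, each contained in the next longer one, had counts of 0 or 1 in all 12 libraries, equal between mdm-miR169k and ppe-miR169f in 12 of 12 and between fve-miR169a and either of them in 11 of 12. All reads of these rows came from the Golan, Manara and Spadona stigmas.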
